A study of Mus musculus with 12 samples.

Results

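The 80 genes described here are those whose messenger RNA stood highest, by the widest margin, in mouse B cells that had divided 8 or more times after lipopolysaccharide (LPS) without putting the plasma cell protein CD138 on their surface. They were chosen from 21761 genes by a score. Gene counts were scaled to a total of 1000000 in each library (CPM), and the score is log2(mean CPM + 1) in these late CD138-negative cells minus the highest such value among the other 5 groups of cells. The 80 highest scores were kept among the 9456 genes with a mean of at least 5 CPM in these cells, after 11 named genes had been left out, of which 6 would otherwise have entered. Of the 9456 genes, 1282 had their highest group mean in these cells. Because the score uses the late CD138-negative libraries, the members' levels in them are given as a description with no test, and for the members only comparisons among the other 5 groups were tested.

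Splenic B cells (B220+ CD43-) were taken from naive mice, labelled with a dye that is diluted at each division (CFSE or CTV), and transferred into uMT hosts, which make no B cells of their own. The hosts were given LPS, a bacterial product that activates B cells through Toll-like receptor 4, and all groups were sorted on day 3 from the spleen. The number in a group's name is its division count: Div0 cells were undivided, and Div1, Div3 and Div5 followed. Cells past 8 or more divisions were split into CD138-negative (Div8neg) and CD138-positive (Div8pos). Each of the 6 groups held 2 libraries, 1 from host 196 and 1 from host 197, so n = 2 in every group, and the p-values speak for the spread between these 2 hosts only. The design text names C57/BL6J mice as the source of the B cells, while the labels give the strain B6.SJL-Ptprca Pepcb/BoyJ, female sex and an age of 8 weeks. All groups share the dye, the transfer, the host without B cells and the LPS. Undivided cells (Div0) come from the same challenged hosts, so no group is without LPS.

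In mice, B cells that meet LPS divide rapidly, and part of the progeny turns into antibody-secreting plasmablasts that carry CD138 (syndecan-1, encoded by Sdc1) and switch off much of the B cell program. Cells that reach the same division without CD138 keep more of the B cell program than those with it. Annexin A2 and its partner S100a10 form a complex that binds acidic phospholipids under the plasma membrane and docks the giant scaffold protein Ahnak, while S1pr2, Gcsam, Mybl1 and Plxnb2 are genes known from germinal center B cells, the B cells of lymphoid follicles that mutate and select their antibodies. Itgam, Sox5, Ahnak and Anxa2 are known from innate-like (marginal zone, B1) or age-associated B cells.

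The defining genes of the sort followed its labels. Sdc1 stood at a mean of 4.803 CPM in Div8neg and 305 CPM in Div8pos, the plasma cell regulator Prdm1 at 59.4 and 309.8 CPM, and the B cell factor Pax5 at 240.5 and 9.03 CPM. Libraries held 11551585 to 14975133 gene counts and 10964 to 11498 genes with 10 or more counts. Cd3e, Cd3d and Cd3g, which define T cells, stood at 0.106 to 0.188 CPM in Div8neg, the natural killer cell gene Ncr1 at 0.0390 CPM and the macrophage gene C1qa at 0.828 CPM. The neutrophil genes S100a8 and S100a9 were higher in host 197 than in host 196 in every group. In hosts 196 and 197, S100a9 stood at 2.552 and 32.2 CPM in Div1 and at 4.165 and 6.786 in Div8neg. Among the 9 lists of markers of other host cells, the summed level in Div8neg was above that of every other group for none. Single genes made up most of some sums, as Cd2 did for T cells (114 CPM in Div8neg) and Itgb3 for platelets (40.5 CPM). Gene by gene, edgeR (described below) called 4 of 8 platelet and megakaryocyte genes higher in Div8neg than at Div5 and 1 lower. Of 14 macrophage and monocyte genes it called 1 higher and 5 lower (26.8% and 26.6% of all genes). The macrophage and monocyte list (17 genes in the table, 8 of them under 1 CPM in Div8neg) summed to 63.6 and 74.7 CPM in Div8neg, within the 56.8 to 104.8 CPM of Div0 to Div5, although its gene Cd68 was highest in Div8neg (32.3 CPM). Members such as Itgam, Fcgr4 and Myo1f are also expressed by macrophages, and whether any host cells add to their levels was not tested.

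Promoter sequences from RefSeq (GRCm38.p6) were matched to 62 of the 80 members. The 250 bases before the annotated start of 4 members are shown, because these genes head the annexin and germinal center groups described below and their promoters differ in CpG content and in the motifs they hold. Capitals mark matches, on either strand, to AP-1 (TGANTCA), the cyclic AMP response element CRE (TGACGTCA), RUNX (TGTGGT, or ACCACA on the other strand) or the TATA box (TATAAA).
Anxa2, chr9:69453433-69453682, plus strand: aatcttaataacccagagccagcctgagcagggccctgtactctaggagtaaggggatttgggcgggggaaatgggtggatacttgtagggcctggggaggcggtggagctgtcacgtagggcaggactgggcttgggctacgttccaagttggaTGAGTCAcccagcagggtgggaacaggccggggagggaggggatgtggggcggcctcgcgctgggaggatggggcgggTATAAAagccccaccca
S100a6, chr3:90612644-90612893, plus strand: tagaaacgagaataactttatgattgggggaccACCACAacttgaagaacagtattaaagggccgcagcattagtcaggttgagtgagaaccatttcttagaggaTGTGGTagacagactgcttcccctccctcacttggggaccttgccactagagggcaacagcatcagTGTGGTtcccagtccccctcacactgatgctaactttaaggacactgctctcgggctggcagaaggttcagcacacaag
S1pr2, chr9:20976794-20977043, minus strand: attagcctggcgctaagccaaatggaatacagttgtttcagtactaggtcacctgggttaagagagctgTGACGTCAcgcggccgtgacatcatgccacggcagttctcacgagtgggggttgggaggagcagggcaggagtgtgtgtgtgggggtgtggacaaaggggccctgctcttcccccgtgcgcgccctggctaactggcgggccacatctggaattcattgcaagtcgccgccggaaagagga
Gcsam, chr16:45610190-45610439, plus strand: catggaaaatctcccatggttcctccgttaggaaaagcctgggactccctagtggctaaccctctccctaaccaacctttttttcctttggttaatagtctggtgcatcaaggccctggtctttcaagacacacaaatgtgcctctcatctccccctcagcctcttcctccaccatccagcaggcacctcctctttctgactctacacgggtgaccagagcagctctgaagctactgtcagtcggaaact
The promoter of Anxa2 holds an AP-1 match that begins 95 bases before the start and a TATA box 17 bases before it. That of S100a6 holds 3 RUNX matches, beginning 217, 145 and 79 bases before the start, and an E-box in the window used below but outside the bases shown. The S1pr2 promoter holds a CRE match 181 bases before the start, and the Gcsam promoter holds no match to any of the 10 motifs searched. Windows of 300 bases, from 250 before to 50 after the first listed start, were compared with those of the 7685 genes at 5 CPM or more in Div8neg that have one. AP-1 letters were in 6 members' windows (Anxa2, Apobr, Cd80, Diras2, Slc6a12 and Sspn), 9.68% of 62 beside 4.35% of the 7685. RUNX letters were in 10 (16.1% beside 12.2%), the E-box CACGTG in 3 (4.84% beside 11.0%), the CRE in 1 (1.61% beside 3.51%), and the STAT letters TTCNNNGAA, which read the same on both strands, in 0 (beside 6.84%). The other motifs were TATAAA (4 members, 6.45% beside 6.19%), the ETS-IRF composite element EICE (2, 3.23% beside 2.46%), the core of the interferon-stimulated response element (1, 1.61% beside 3.16%), the BLIMP1 core GAAAGTG (1, 1.61% beside 4.81%) and the T-box letters TCACACCT (1, 1.61% beside 0.794%). All were searched on both strands, and matches of the EICE and the interferon element can overlap. The median window held 15.5 CpG dinucleotides in members and 22 in all, and 12 members, Gcsam, Lcp2, Myo1f, Sox5 and Cd80 among them, had 5 or fewer (19.4% beside 6.83%). These counts are descriptions of letters in a fixed window, with no test.

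The members ranged from 5.01 to 546 CPM in Div8neg (median 16.6), and their means there were 1.53 to 24.0 times those of the next highest group (median 1.90). The score ran from 0.59 to 2.45, and 25 members scored 1 or more. In Div8neg the 80 genes together made up 3404 and 3631 CPM in hosts 196 and 197. The same sum was 909 and 949.8 CPM in Div0, 867 and 922 in Div1, 932 and 1052 in Div3, 1597 and 1815 in Div5, and 927 and 980.3 in Div8pos. By CPM the sum thus stayed near its Div0 level through Div3, stood higher at Div5, and in Div8pos was back near the level of undivided cells. This does not hold per cell, where Div8pos stood at 172 and 156 mRNAs and Div0 at 27.7 and 35.2. In bulk libraries, fewer cells that carry a message and less of it in each cell cannot be told apart. Div5 was the next highest group for 60 members and Div8pos for 15, which leaves 2 for Div0, 2 for Div1 and 1 for Div3. In 78 members both Div8neg libraries stood above all other 10, the exceptions being Acvrl1 and Col4a1. The map of all members by library shows the 2 Div8neg columns as the warmest for nearly every gene.

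**Figure D1:**
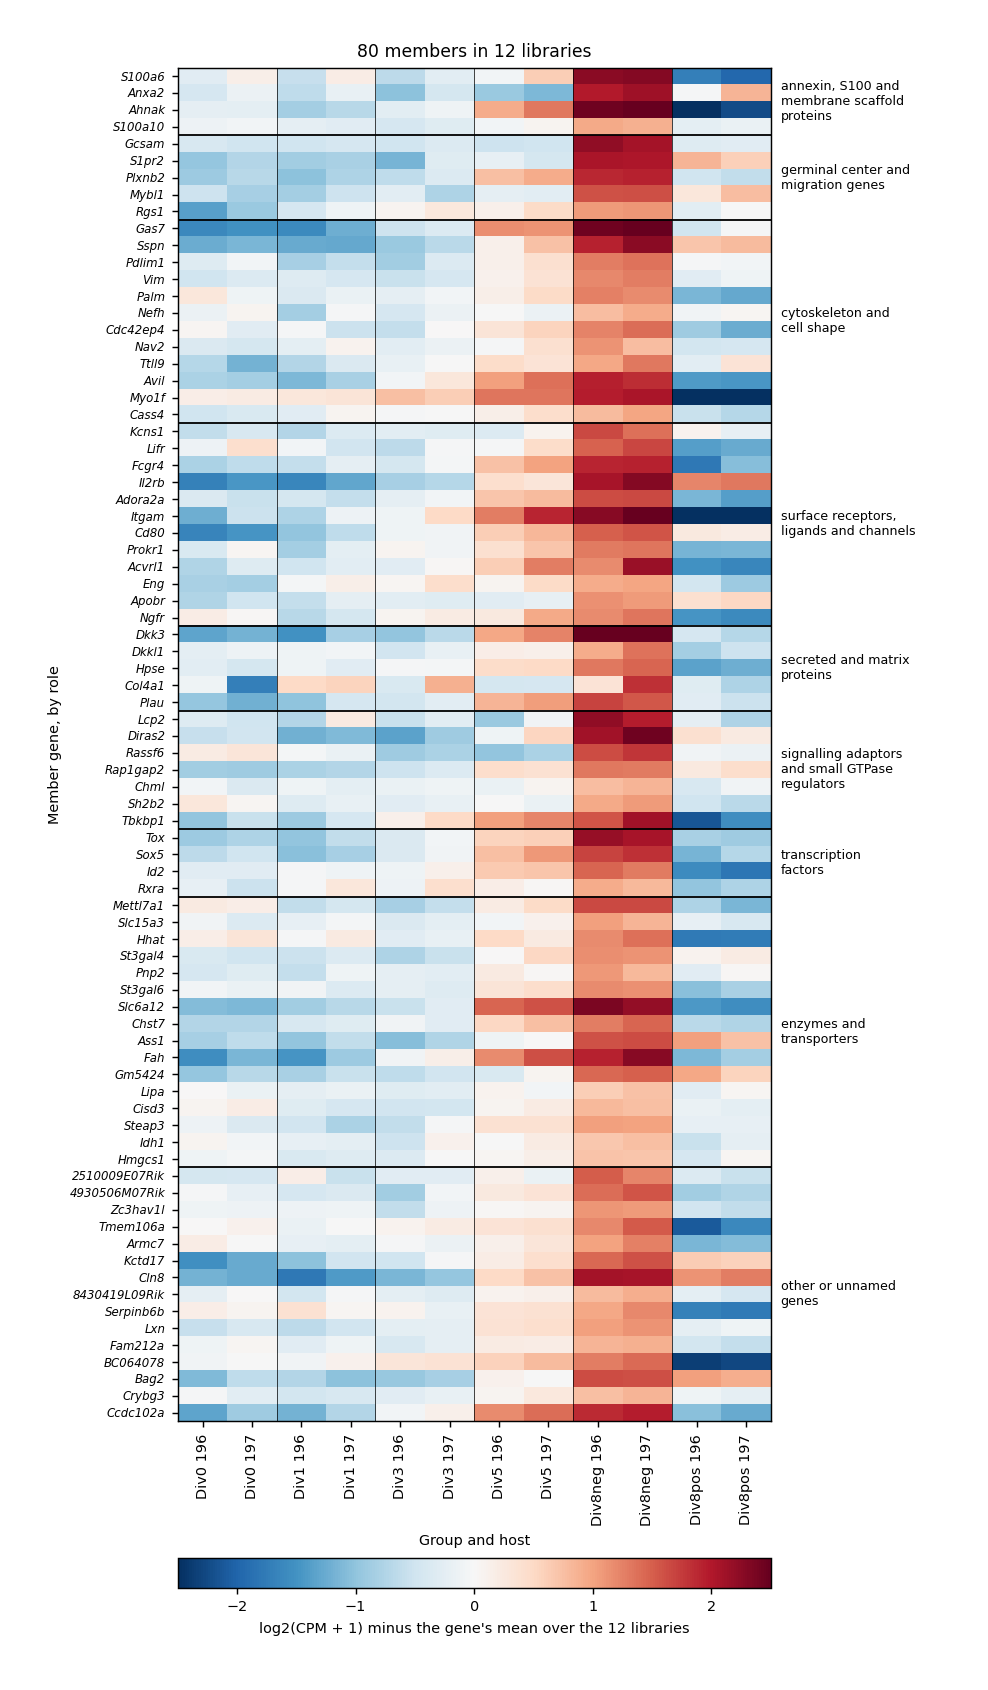
Each row is 1 of the 80 members, grouped by role, and each column 1 of the 12 libraries. Colour gives log2(CPM + 1) minus the gene's mean over the libraries (red above, blue below, saturated at 2.5). The Div8neg columns are the reddest for 78 members, and the Div8pos columns range from light red (Il2rb, Ass1) to deep blue (Myo1f, Itgam).

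The 2 hosts gave much the same picture. All 80 members peaked in Div8neg in host 197 and 79 in host 196, where Col4a1 did not. The ratio of host 197 to host 196 within Div8neg was within 1.3-fold for 73 members (median 1.05, range 0.759 to 3.36). The score computed in each host alone had a Pearson r of 0.730 over the 80 members, a description only, since the members share libraries and were chosen on both hosts. Col4a1, which encodes a basement membrane collagen chain, stood at 2.04 and 0 CPM in Div0, 3.66 and 3.82 in Div1, 1.52 and 5.08 in Div3, 1.42 and 1.44 in Div5, 3.18 and 10.7 in Div8neg and 1.66 and 0.932 in Div8pos. Its Div8neg libraries differ 3.36-fold, and the one of host 196 lies below 3 libraries of Div1 and Div3. Acvrl1, a type I receptor of the TGF-beta family, stood at 0.833 and 1.47 CPM in Div0, 1.19 and 1.57 in Div1, 1.52 and 2.14 in Div3, 3.73 and 6.498 in Div5, 6.001 and 12.8 in Div8neg and 0.0756 and 0 in Div8pos, so that its Div8neg library of host 196 lies below the Div5 library of host 197.

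**Figure D2:**
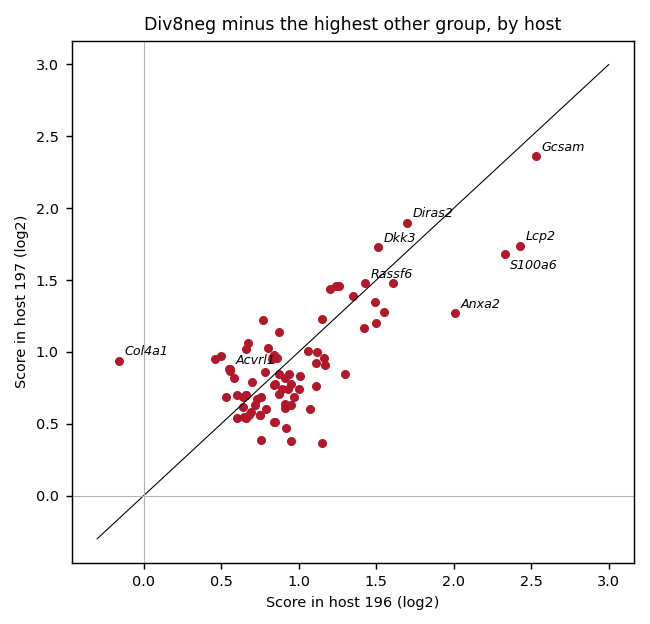
Each point is 1 of the 80 members, with its score (log2, Div8neg minus the highest other group) in host 196 on the x axis and in host 197 on the y axis. The diagonal marks equal scores. Gcsam lies at the top right of both hosts, and Col4a1 is the 1 gene left of 0.

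Up to 3 divisions 7 and 11 of the 80 members were called in the 2 steps, as tested with edgeR's quasi-likelihood test on all 12 libraries at an adjusted p under 0.05. Between Div0 and Div1, 3 members rose (Cd80, Eng and Rgs1; 5.47% of all 12049 genes tested rose) and 4 fell (Ahnak, Cisd3, Mettl7a1 and Pdlim1; 3.9% of all fell). The median log2 fold change of the members was 0.00, beside -0.01 over all genes. Cd80, a costimulatory ligand for CD28, rose by 0.91 ± 0.17 (SE; adjusted p = 0.00294), and Mettl7a1, a methyltransferase-like protein, fell by 0.89 ± 0.22 (adjusted p = 0.0153). Each of the 7 calls was lost without at least 1 library. Leaving out a Div0 library kept 3 (host 196) or 2 (host 197) of the 7, and leaving out a Div1 library kept 4 (host 196) or 0 (host 197), the last with an adjusted p of 0.0598 for Cd80 and 0.0581 for Mettl7a1. With the host as a block, 5 members rose (7.83% of all genes), and without the filter on low counts 7 rose and 7 fell. For the fit without the filter the shares over all genes were not counted. With libraries scaled per cell by spike-in RNA, no fall was called, and Ahnak, Pdlim1 and Cisd3 had small positive values (0.21, 0.22 and 0.22).

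Between Div1 and Div3, 10 members rose (1.91% of all genes rose) and 1, Rassf6, fell (1.51% of all fell), with a median of 0.17 beside 0.00. The 10 were Ahnak, Avil, Ccdc102a, Cd80, Fah, Gas7, Il2rb, Myo1f, Plxnb2 and Tbkbp1. Fah, the last enzyme of tyrosine breakdown, rose (log2 fold change 1.3 ± 0.23, adjusted p = 0.00449), as did Gas7, an actin-binding protein (log2 fold change 1.10 ± 0.17, adjusted p = 0.00177). Il2rb, the beta chain of the receptors for interleukins 2 and 15, also rose (log2 fold change 0.81 ± 0.17, adjusted p = 0.0165). Without the Div1 library of host 196 the count was 2, and without that of host 197 in Div3 it was 4. Gas7 and Myo1f kept the call in all 4 fits that left out a library of these groups, while Fah had an adjusted p of 0.0572 without host 196 in Div1 and Il2rb of 0.17 without it and 0.132 without host 197 in Div3. The fall of Rassf6 was lost in each of those fits (adjusted p 0.0719 to 0.168).

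Of the 3 steps up to Div5, the one between 3 and 5 divisions held the most calls. There 47 of the 80 members rose (14.2% of all genes rose) and 0 fell (12.4% of all fell; 0 members also at an unadjusted p under 0.05 and 0 with DESeq2, but 1, Col4a1, without the filter on low counts, at -1.23 with adjusted p = 0.000313), with a median log2 fold change of 0.66 beside 0.00 and 23 members up at least 2-fold. Over all genes the 95th percentile of the log2 fold change was 0.63, short of a 2-fold rise. Among the members the secreted dickkopf protein Dkk3 rose most (log2 fold change 3.00 ± 0.43, adjusted p = 0.000208). Slc6a12, a carrier of betaine and GABA, rose too (log2 fold change 2.60 ± 0.25, adjusted p = 7.64e-06), as did Cln8, which serves transport from the endoplasmic reticulum to the Golgi (log2 fold change 2.00 ± 0.18, adjusted p = 5.31e-06), and the protease urokinase, Plau (log2 fold change 1.66 ± 0.25, adjusted p = 0.000305). These 4 kept their calls in every alternative tried. Without 1 library of these groups 33 to 48 members rose, and 16 of the 47 lost the call in at least 1 such fit. Over the 3 steps up to Div5, 45 members rose in at least 1 and fell in none, 30 had no call, 4 did both and Rassf6 only fell. These patterns were not counted over all genes. Cd80 was the 1 member called higher in all 3 steps.

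As a share of the messenger RNA, most members were lower in CD138-positive cells than at Div5, while per cell more were higher (33) than lower (28). By CPM, of the 80, 50 fell between Div5 and Div8pos (40% of all genes fell) and 10 rose (39.8% of all rose), with a median of -0.72 beside -0.02, and 38 fell at least 2-fold. Over all genes the 25th percentile of the log2 fold change was -0.92, short of a 2-fold fall. The 10 members that rose were Anxa2, Apobr, Ass1, Bag2, Cln8, Gm5424, Il2rb, Mybl1, Rassf6 and S1pr2. Against undivided cells, 28 members were lower in Div8pos (42.2% of all) and 24 higher (40.2% of all), and the median was 0.01 beside -0.04. Of the 47 that rose at Div5, 36 fell again in Div8pos, 4 rose further (Ass1, Bag2, Cln8 and Il2rb) and 7 had no call. This split was not counted among all genes that rose at Div5, so it is not read as particular to the members. Both comparisons share Div8pos, and the one with Div5 shares that group with the step before it, so the values are set side by side only. Of the 60 calls between Div5 and Div8pos, 8 were lost without some library, and of the 52 against Div0, 14 were.

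**Figure D3:**
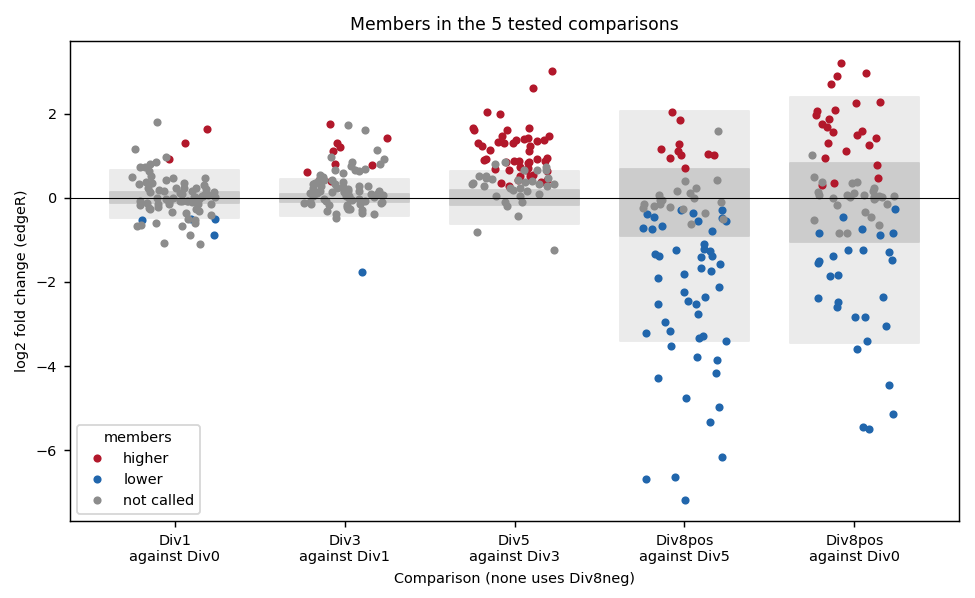
The y axis gives the log2 fold change of each of the 80 members in the 5 comparisons that do not use Div8neg, red where called higher, blue where called lower and grey where not called. The pale band spans the 5th to 95th percentile of all 12049 genes and the dark band the 25th to 75th. Members lie mostly above 0 for Div5 against Div3 (median 0.66) and mostly below it for Div8pos against Div5 (median -0.72).

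The deposited estimates of mRNAs per cell, scaled to spike-in RNA added to 40000 sorted cells, put the same genes on an absolute scale that is also corrected for gene length. By this measure all 80 members were highest in Div8neg, and 76 had both Div8neg libraries above the other 10. The total over all genes was 96920 and 103600 mRNAs per cell in Div8neg and at most 75040 in Div0 to Div5. The choice by CPM therefore largely fixed the order against those groups. Div8pos, with totals of 174000 and 152000, could have stood higher, but only for members with the smallest margins. Every member's mean CPM in Div8neg was at least 1.525 times that in Div8pos. Ass1, at 1.643 times by CPM, stood at 1.047 times per cell. That all 80 were highest in Div8neg, and the ratios to Div8pos below, thus largely restate the choice of members. The sum over the members was 319 and 360.1 mRNAs per cell in Div8neg, 118 and 120.4 in Div5, 43.2 and 58.4 in Div3 and 41.8 and 61.0 in Div1. The members' mean in Div8neg ran from 0.0782 (Nav2) to 75.8 mRNAs per cell (Vim), with a median of 1.53; 27 members were below 1 and 16 at 5 or more. The ratio of Div8neg to Div8pos had a median of 2.96, beside 0.667 over all genes at 5 CPM or more in Div8neg, but it was under 1.5 for 19 members and 1.03 for the closest, Bag2. 

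Tested with library sizes scaled to the spike-ins, the median of all genes itself moved, by 1.05 (log2) between Div5 and Div8pos and by 2.23 between Div0 and Div8pos. On that scale 28 members were lower and 33 higher in Div8pos than in Div5 (13.5% and 65.2% of all genes), and 5 were lower and 63 higher than in Div0 (6.13% and 82.7% of all). All 28 were also among the 50 that fell by CPM, 6 of the 50 turned higher (Idh1, Cd80, 8430419L09Rik, Vim, Cisd3 and Crybg3), and 16 had no call. The 28 lower on both scales include Slc6a12, Acvrl1, Myo1f, Itgam, Ahnak, S100a6, Tox, Sox5 and Id2. Between Div3 and Div5, where the median of all genes rose by 0.53, 70 members were higher per cell and 0 lower (45.2% and 0.398% of all genes, by edgeR). Between Div0 and Div1, with a median of 0.74 over all genes, 53 were higher and 0 lower (81.5% and 0.133% of all), and between Div1 and Div3 5 were higher and 0 lower (0.349% and 0.39% of all). At an unadjusted p under 0.05 on this scale 0, 0 and 1 members were lower in these 3 steps, in that order. DESeq2, which was run without spike-in scaling, called 0 members lower in the step to Div5. A library's spike-in scale is shared by all its genes, so an error in it moves all per cell calls together. The 2 Div1 libraries, for one, had totals of 42830 and 59950 mRNAs per cell. At a like ratio of change to SE, adjusted p-values were far smaller per cell than by CPM. The p-values of the 2 scales are therefore not to be compared.

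**Figure D4:**
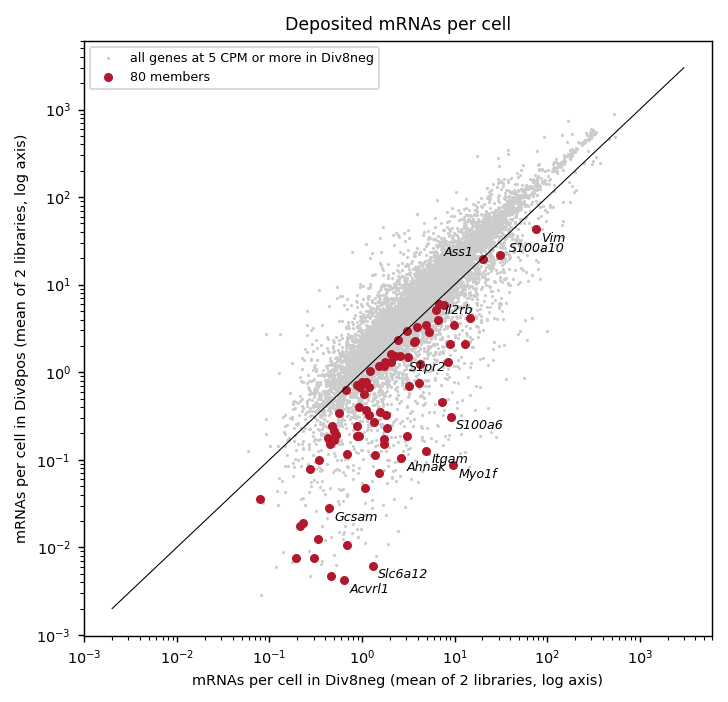
Deposited mRNAs per cell in Div8neg (x axis) and Div8pos (y axis), means of 2 libraries on log axes, for the 80 members (red) and all genes at 5 CPM or more in Div8neg (grey; 5 genes at 0 in Div8pos are not drawn). The diagonal marks equal levels. Most genes lie above it and all 80 members below it, from Bag2 and Ass1 next to the line to Slc6a12 and Acvrl1 far under it. The choice of members by CPM largely fixed their side of the line.

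The 4 annexin, S100 and scaffold members differed in CD138-positive cells, where by CPM Anxa2 was higher than at Div5, Ahnak and S100a6 were lower and S100a10 had no call (40% of all genes were lower and 39.8% higher). Anxa2, which binds phospholipids in a calcium-dependent way, stood at 4.92 and 6.15 CPM in Div0, 4.08 and 5.93 in Div1, 2.90 and 4.81 in Div3, 3.14 and 2.65 in Div5, 30.1 and 33.4 in Div8neg and 6.72 and 13.3 in Div8pos. By CPM it thus sat lowest at Div5 and stood in Div8neg at 3.17 times the next highest group. Per cell its mean was lowest in Div0 (0.172 mRNAs, beside 0.207 at Div5). It was higher in Div8pos than at Div5 (log2 fold change 1.84 ± 0.31, adjusted p = 4.51e-05; 2.90 ± 0.29 per cell, adjusted p = 5.83e-23). S100a10, the partner of annexin A2 in its complex, was measured at 37.5 and 39.0 CPM in Div0, 35.0 and 33.7 in Div1, 30.6 and 33.3 in Div3, 39.4 and 43.2 in Div5, 80.3 and 77.5 in Div8neg and 34.6 and 36.4 in Div8pos. S100a10 rose at Div5 (log2 fold change 0.36 ± 0.08, adjusted p = 0.00276; adjusted p = 0.0577 without the Div5 library of host 197), with no call between Div5 and Div8pos (log2 fold change -0.15 ± 0.08, adjusted p = 0.0872), though per cell it was higher in Div8pos (0.93 ± 0.23, adjusted p = 7.88e-05). Ahnak, the scaffold that binds this complex, was at 27.0 and 26.8 CPM in Div0, 17.4 and 19.3 in Div1, 26.3 and 29.4 in Div3, 62.1 and 81.6 in Div5, 176 and 209.7 in Div8neg and 3.93 and 6.02 in Div8pos. It fell at the first division, rose in both later steps (log2 fold change 1.36 ± 0.13, adjusted p = 7.32e-06 for Div5 against Div3) and fell in Div8pos (log2 fold change -3.79 ± 0.17, adjusted p = 7.76e-12 against Div5; -2.71 ± 0.26 per cell, adjusted p = 6.52e-24) to below its Div0 level, a difference from Div0 that was called by CPM and not per cell. The calls at Div1 and Div3 were lost without any 1 of the 4 libraries concerned (adjusted p 0.0997 to 0.152 and 0.0524 to 0.218), and those at Div5 and Div8pos were kept. S100a6, or calcyclin, another small calcium-binding protein, was at 3.56 and 5.11 CPM in Div0, 2.72 and 5.25 in Div1, 2.51 and 3.61 in Div3, 4.26 and 7.46 in Div5, 25.4 and 26.1 in Div8neg and 0.680 and 0.424 in Div8pos. Its 2 Div8neg libraries lay at 25.4 CPM or more and every other library at 7.46 or less, while in Div8pos it fell to the lowest level of all groups (log2 fold change -3.29 ± 0.45, adjusted p = 5.42e-06 against Div5; -2.21 ± 0.42 per cell, adjusted p = 2.2e-07). Its rise at Div5 (log2 fold change 0.91 ± 0.31, adjusted p = 0.0398) was lost without the Div3 library of host 196 (adjusted p = 0.218) or the Div5 library of host 197 (0.447). Per cell, Div8neg held 2.85 and 3.41 Anxa2, 30.3 and 31.4 S100a10, 2.30 and 2.95 Ahnak and 8.66 and 9.59 S100a6 messages in hosts 196 and 197.

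Genes known from germinal center B cells and their migration gave the highest score and 3 more of the top 20. Gcsam, a membrane-linked adaptor that restrains the movement of germinal center B cells, had the highest score and stood at 0.151 and 0.0866 CPM in Div0, 0.0851 and 0.136 in Div1, 0.0762 and 0.200 in Div3, 0.0747 and 0.0802 in Div5, 6.07 and 5.46 in Div8neg and 0.227 and 0.254 in Div8pos. It was thus close to absent in every group but Div8neg, where the 2 libraries lie close together. Elsewhere it rested on 2 to 6 counts over the 2 libraries of a group, so changes among those groups were not detectable at this depth by CPM (adjusted p 0.139 or more). Per cell all 5 members of this role were called higher in Div8pos than in Div0 (82.7% of all genes). For Gcsam that call rested on 6 counts against 3. S1pr2, the sphingosine 1-phosphate receptor that keeps germinal center B cells in the follicle, was at 2.65 and 3.29 CPM in Div0, 2.89 and 3.07 in Div1, 2.21 and 4.81 in Div3, 5.15 and 4.25 in Div5, 28.4 and 28.1 in Div8neg and 11.8 and 9.75 in Div8pos. Both Div5 libraries of S1pr2 lay above both of Div0, with no call by CPM in any of the 3 steps to Div5, although per cell the steps to Div1 and Div5 were called higher (0.76 ± 0.32, adjusted p = 0.0236, and 0.92 ± 0.29, adjusted p = 0.00933). It was higher in Div8pos than at Div5 (log2 fold change 1.27 ± 0.22, adjusted p = 7.91e-05; 2.35 ± 0.27 per cell, adjusted p = 3.66e-17), though below Div8neg. Mybl1, a transcription factor of the MYB family, was also higher in Div8pos than at Div5, at 2.80 and 2.08 CPM in Div0, 2.04 and 2.80 in Div1, 3.58 and 2.20 in Div3, 3.66 and 3.53 in Div5, 15.4 and 15.8 in Div8neg and 5.67 and 8.31 in Div8pos. The comparison of Div8pos with Div5 gave log2 fold change 1.02 ± 0.24, adjusted p = 0.00111. Plxnb2, a semaphorin receptor, took another course at 54.0 and 63.6 CPM in Div0, 50.0 and 60.03 in Div1, 65.8 and 80.7 in Div3, 174 and 197 in Div5, 380.1 and 394 in Div8neg and 72.7 and 66.5 in Div8pos. Plxnb2 rose at Div5 (log2 fold change 1.34 ± 0.10, adjusted p = 1.28e-06) and fell in Div8pos (log2 fold change -1.34 ± 0.10, adjusted p = 3.67e-09). The fall was not called per cell. Rgs1, which dampens chemokine receptor signalling, was low throughout and reached 6.93 ± 0.122 CPM (SD, n = 2) in Div8neg. Its rise from Div0 to Div1 (log2 fold change 1.63 ± 0.38, adjusted p = 0.0129) was lost when host 196 was left out of Div0 (0.152) or host 197 out of Div1 (0.128).

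**Figure D5:**
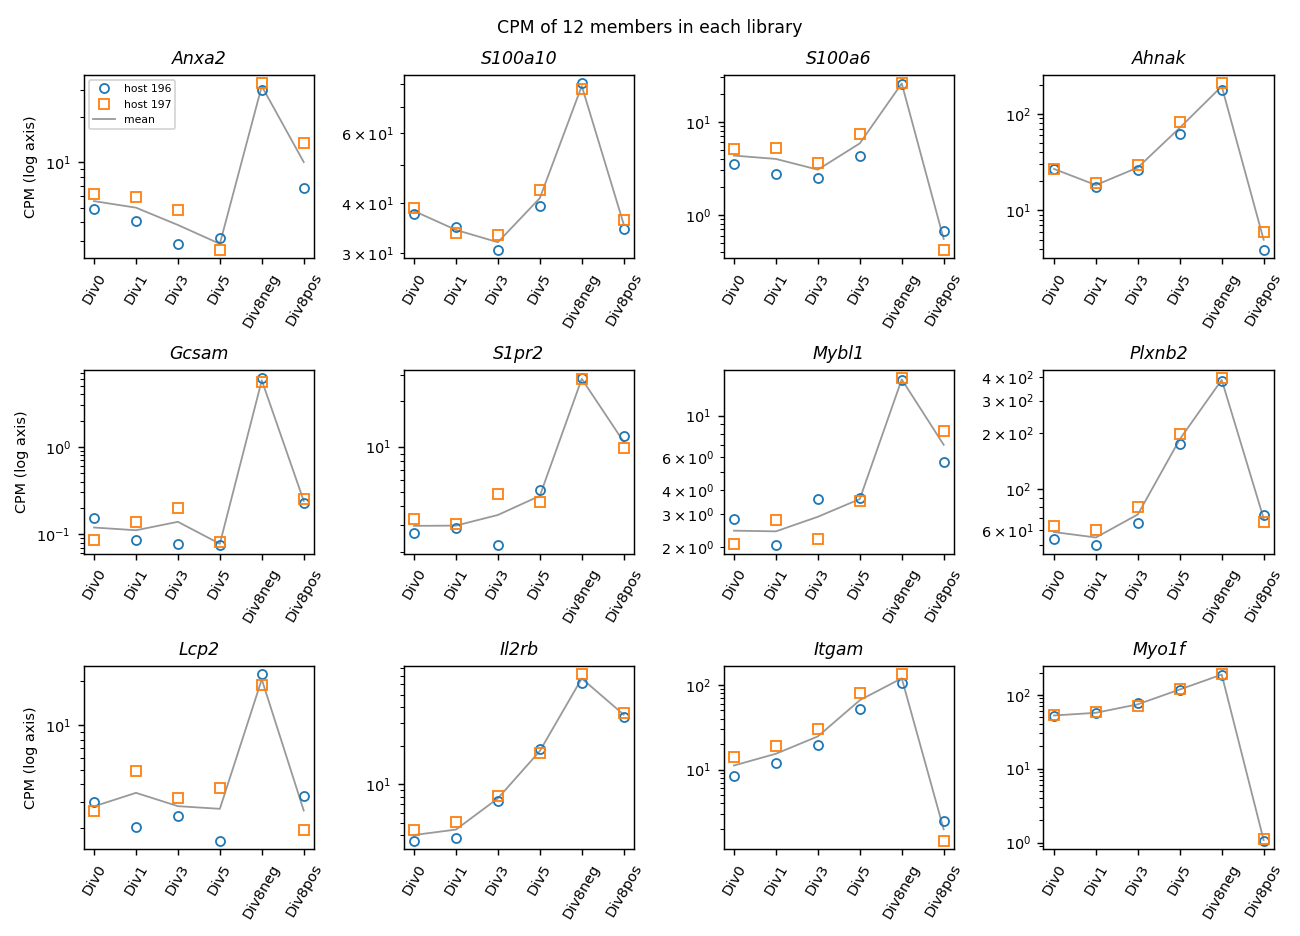
CPM (log axis) of 12 members in each library, by group on the x axis, with circles for host 196, squares for host 197 and a line through the means. Every panel peaks in Div8neg. By CPM, Anxa2, S1pr2 and Mybl1 stay above their Div5 level in Div8pos, whereas Ahnak, S100a6, Itgam and Myo1f drop below their Div0 level there.

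Genes of the cytoskeleton and cell shape were 12 of the members. By CPM 8 rose at Div5 (14.2% of all genes did) and 8 fell in Div8pos against Div5 (40% of all). Per cell 12 rose at Div5 (45.2% of all), and 4 fell and 4 rose in Div8pos (13.5% and 65.2% of all). Gas7 was at 4.54 and 4.93 CPM in Div0, 4.59 and 6.21 in Div1, 10.8 and 12.3 in Div3, 36.9 and 35.8 in Div5, 89.7 and 100.2 in Div8neg and 11.0 and 15.4 in Div8pos. It climbed from Div1 on (log2 fold change 1.65 ± 0.13, adjusted p = 1.59e-06 at Div5) and fell in Div8pos by CPM (log2 fold change -1.40 ± 0.13, adjusted p = 3.89e-08; no call per cell) to a level still above Div0 (log2 fold change 1.56 ± 0.18, adjusted p = 6.49e-07). Myo1f, an unconventional myosin of blood cells, stood at 51.5 and 53.4 CPM in Div0, 56.4 and 57.6 in Div1, 78.01 and 70.7 in Div3, 118 and 118 in Div5, 184 and 192 in Div8neg and 1.06 and 1.10 in Div8pos. It was close to absent from CD138-positive cells. Its fall between Div5 and Div8pos was a log2 change of -6.69 ± 0.12 (adjusted p = 2.04e-16) and of -5.62 ± 0.33 per cell. It was also far below Div0 (log2 fold change -5.50 ± 0.14, adjusted p = 4.33e-15). Vim, the intermediate filament vimentin, was the most abundant member per cell, with 71.3 and 80.4 mRNAs in Div8neg and 43.8 and 42.8 in Div8pos. By CPM Vim stood at 162 and 182 CPM in Div0, 185 and 173 in Div1, 156 and 171 in Div3, 247 and 295 in Div5, 534 and 558 in Div8neg and 189.6 and 212 in Div8pos. Vim is a case where the scale decides the direction, as it fell from Div5 to Div8pos by CPM (log2 fold change -0.36 ± 0.08, adjusted p = 0.000945) and rose per cell (0.72 ± 0.23, adjusted p = 0.00239). Sspn, a protein of the dystrophin complex, reached 20.8 ± 3.40 CPM in Div8neg and was higher in Div8pos than in Div0 (log2 fold change 2.71 ± 0.29, adjusted p = 2.46e-07). Pdlim1, an adaptor on actin stress fibres, reached 99.2 ± 4.11 CPM in Div8neg with 47.3 ± 6.66 CPM at Div5. The actin-binding Avil fell from 7.54 ± 1.48 CPM at Div5 to 0.358 ± 0.0275 CPM in Div8pos.

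Surface receptors, ligands and channels numbered 12. By CPM 6 rose at Div5 (14.2% of all genes), and 9 fell and 2 rose in Div8pos against Div5 (40% and 39.8% of all). Per cell 9 rose at Div5 (45.2% of all), and 7 fell and 4 rose in Div8pos (13.5% and 65.2% of all). Itgam, the integrin chain CD11b of B1 and myeloid cells, was at 8.33 and 14.0 CPM in Div0, 11.8 and 19.0 in Div1, 19.4 and 30.1 in Div3, 51.9 and 80.4 in Div5, 105 and 135 in Div8neg and 2.49 and 1.44 in Div8pos. Its values stood higher in both hosts at each step to Div8neg, with a call at Div5 alone (log2 fold change 1.40 ± 0.23, adjusted p = 0.000584), and fell in Div8pos (log2 fold change -4.97 ± 0.37, adjusted p = 3.53e-09; -3.88 ± 0.29 per cell, adjusted p = 1.49e-38). It was below Div0 there by CPM (-2.37 ± 0.51, adjusted p = 0.000434), with no call per cell. Il2rb took the opposite course after Div5, at 3.63 and 4.42 CPM in Div0, 3.83 and 5.05 in Div1, 7.39 and 8.15 in Div3, 18.8 and 17.5 in Div5, 61.1 and 72.4 in Div8neg and 33.5 and 36.2 in Div8pos. It rose at Div5 (log2 fold change 1.22 ± 0.13, adjusted p = 2.73e-05) and again in Div8pos (log2 fold change 1.01 ± 0.11, adjusted p = 3.3e-07), which left it 3.21 ± 0.14 (log2) above Div0, more than any other member. Cd80 stood at 4.01 and 4.67 CPM in Div0, 6.98 and 9.07 in Div1, 13.6 and 13.8 in Div3, 23.0 and 27.1 in Div5, 43.5 and 45.9 in Div8neg and 17.7 and 16.9 in Div8pos. It fell between Div5 and Div8pos by CPM (-0.46 ± 0.11, adjusted p = 0.00159) and rose per cell (0.62 ± 0.23, adjusted p = 0.00971). Lifr, the receptor of leukemia inhibitory factor, reached 7.92 ± 0.820 CPM in Div8neg and fell from 2.54 ± 0.839 CPM at Div5 to 0.203 ± 0.0729 CPM in Div8pos. Fcgr4, an activating receptor for IgG, went from 6.80 ± 1.05 CPM to 0.622 ± 0.559 CPM over the same pair, after 14.97 ± 0.112 CPM in Div8neg. Kcns1, a potassium channel subunit, reached 5.34 ± 0.829 CPM in Div8neg, with no call in the steps to Div5 or between Div5 and Div8pos. Acvrl1, Ngfr and Prokr1 were close to absent from Div8pos: 1 count of Acvrl1 there against 131 in Div5 (ratio 127, 95% counting interval 22.4 to 5050), 1 of Ngfr against 94 (91.0, 15.9 to 3630) and 2 of Prokr1 against 65 (31.5, 8.37 to 265). These intervals cover counting error only.

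Among the 7 signalling adaptors and small GTPase regulators, 3 rose at Div5 by CPM (14.2% of all genes), and 2 fell and 1 rose in Div8pos against Div5, both no larger a share than over all genes (40% and 39.8%). Per cell 5 rose at Div5 (45.2% of all), and 1 fell and 5 rose in Div8pos (13.5% and 65.2% of all). Lcp2, the adaptor SLP-76 of antigen receptor signalling in T cells, had the second highest score, at 3.03 and 2.60 CPM in Div0, 2.04 and 4.91 in Div1, 2.44 and 3.21 in Div3, 1.64 and 3.77 in Div5, 22.4 and 18.7 in Div8neg and 3.33 and 1.95 in Div8pos. None of the 5 comparisons gave a call for it by CPM. Diras2, a small GTPase of the Ras family, was at 1.74 and 1.91 CPM in Div0, 0.766 and 0.887 in Div1, 0.610 and 1.20 in Div3, 2.76 and 4.89 in Div5, 16.5 and 21.1 in Div8neg and 4.38 and 3.73 in Div8pos. A rise at Div5 (log2 fold change 2.03 ± 0.35, adjusted p = 0.000863) was called for it, with no further call in Div8pos (0.17 ± 0.27, adjusted p = 0.578). Rassf6, a Ras-association domain protein, was at 1.82 and 1.99 CPM in Div0, 1.36 and 1.16 in Div1, 0.305 and 0.401 in Div3, 0.224 and 0.401 in Div5, 6.57 and 7.33 in Div8neg and 1.28 and 1.19 in Div8pos. It was lowest at Div3 and Div5 and higher in Div8pos than at Div5 (log2 fold change 2.04 ± 0.44, adjusted p = 0.000461). Tbkbp1, which binds the kinase TBK1, fell from 11.4 ± 1.29 CPM at Div5 to 0.617 ± 0.446 CPM in Div8pos.

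The 4 members grouped as transcription factors (Mybl1 stands with the germinal center genes) were all lower in Div8pos than at Div5 by CPM, beside 40% of all genes, and 3 of them, all but Rxra, per cell, beside 13.5%. Tox, a factor known from T cell development and exhaustion, was at 0.151 and 0.260 CPM in Div0, 0.0851 and 0.409 in Div1, 0.686 and 1.07 in Div3, 2.17 and 2.25 in Div5, 8.68 and 8.03 in Div8neg and 0.227 and 0.170 in Div8pos. It rose at Div5 (log2 fold change 1.3 ± 0.35, adjusted p = 0.0123; adjusted p = 0.115 without host 196 in Div3 and 0.0779 without host 197 in Div5) and fell in Div8pos (log2 fold change -3.33 ± 0.49, adjusted p = 1.12e-05; -2.29 ± 0.63 per cell, adjusted p = 0.000432). Sox5, a factor reported in atypical memory B cells, stood at 0.757 and 0.952 CPM in Div0, 0.340 and 0.546 in Div1, 1.14 and 1.60 in Div3, 3.66 and 4.81 in Div5, 7.91 and 8.74 in Div8neg and 0.227 and 0.678 in Div8pos. It had a rise at Div5 (log2 fold change 1.60 ± 0.29, adjusted p = 0.00126) and a fall in Div8pos (log2 fold change -3.16 ± 0.38, adjusted p = 1.23e-06). Id2, which blocks the DNA binding of E proteins, went from 25.7 ± 0.423 CPM at Div5 to 42.4 ± 3.35 CPM in Div8neg and 4.21 ± 0.563 CPM in Div8pos, and fell between the outer 2 (log2 fold change -2.53 ± 0.14, adjusted p = 6.48e-11).

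Of the 5 secreted and matrix members, 3 rose at Div5 by CPM (14.2% of all genes) and 4 fell in Div8pos against Div5 (40% of all). Scaled per cell 4 rose at Div5 (45.2% of all), and 2 fell and 1 rose in Div8pos (13.5% and 65.2% of all). Dkk3 was at 0.151 and 0.260 CPM in Div0, 0 and 0.614 in Div1, 0.457 and 0.801 in Div3, 4.63 and 5.78 in Div5, 15.04 and 21.4 in Div8neg and 1.13 and 0.763 in Div8pos. It went from near 0 to its Div5 level in the step from Div3 and fell in Div8pos (log2 fold change -2.36 ± 0.41, adjusted p = 7.01e-05; -1.28 ± 0.39 per cell, adjusted p = 0.00142). Plau reached 11.1 ± 0.846 CPM in Div8neg, and Hpse, the enzyme that cleaves heparan sulfate, 122 ± 8.27 CPM, with a fall of Hpse from 64.3 ± 1.39 CPM at Div5 to 18.4 ± 1.09 CPM in Div8pos.

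Enzymes and transporters were 16 members. By CPM 11 rose at Div5 (14.2% of all genes), and 9 fell and 2 rose in Div8pos against Div5 (40% and 39.8% of all). Scaled per cell all 16 rose at Div5 (45.2% of all), and 4 fell and 9 rose in Div8pos (13.5% and 65.2% of all). Slc6a12 was at 0.379 and 0.346 CPM in Div0, 0.596 and 0.819 in Div1, 0.990 and 1.40 in Div3, 7.02 and 7.78 in Div5, 14.1 and 12.4 in Div8neg and 0.0756 and 0 in Div8pos. The groups up to Div3 lie below both Div5 libraries, and in Div8pos 1 count remained against 191 at Div5 (ratio 185, 95% counting interval 32.8 to 7340). Fah was at 5.38 and 7.53 CPM in Div0, 5.70 and 9.004 in Div1, 16.5 and 19.8 in Div3, 41.5 and 56.2 in Div5, 69.6 and 90.2 in Div8neg and 7.63 and 9.41 in Div8pos. It had a rise at Div5 (log2 fold change 1.41 ± 0.17, adjusted p = 6.23e-05) and a fall in Div8pos (log2 fold change -2.45 ± 0.20, adjusted p = 1.11e-08). Ass1, which makes argininosuccinate on the way to arginine, was at 23.5 and 26.8 CPM in Div0, 20.9 and 27.2 in Div1, 19.9 and 24.8 in Div3, 39.4 and 42.4 in Div5, 129 and 133 in Div8neg and 87.9 and 71.5 in Div8pos. It rose at Div5 (log2 fold change 0.86 ± 0.13, adjusted p = 0.000314) and again in Div8pos (log2 fold change 1.04 ± 0.11, adjusted p = 4.36e-07). Per cell its Div8neg and Div8pos levels overlapped (19.3 and 21.4 mRNAs in Div8neg, 22.7 and 16.1 in Div8pos). Gm5424, a transcribed pseudogene that copies Ass1, rose alongside it in Div8pos (log2 fold change 1.15 ± 0.22, adjusted p = 0.000151). How reads were divided between this pair is not given, so its value is uncertain, as are those of Pnp2, Serpinb6b and Mettl7a1, which have close relatives. Mettl7a1 was at 5.53 and 5.19 CPM in Div0, 2.64 and 3.07 in Div1, 2.13 and 2.67 in Div3, 5.38 and 6.74 in Div5, 16.5 and 16.5 in Div8neg and 2.27 and 1.53 in Div8pos. It was lowest at Div3 among the CD138-negative groups. It rose at Div5 (log2 fold change 1.32 ± 0.21, adjusted p = 0.000528) and fell in Div8pos by CPM (log2 fold change -1.58 ± 0.23, adjusted p = 1.02e-05; no call per cell). Hhat, which attaches palmitate to hedgehog proteins, had 2 counts in Div8pos against 97 at Div5 (ratio 47.0, 95% counting interval 12.7 to 393).

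The other 15 members included 9 that rose at Div5 by CPM (14.2% of all genes), and 11 that fell and 2 that rose in Div8pos against Div5 (40% and 39.8% of all). On the per cell scale all 15 rose at Div5 (45.2% of all), and 5 fell and 5 rose in Div8pos (13.5% and 65.2% of all). Cln8 was at 2.35 and 2.16 CPM in Div0, 1.19 and 1.84 in Div1, 2.44 and 2.87 in Div3, 9.71 and 11.71 in Div5, 31.1 and 30.9 in Div8neg and 15.6 and 17.5 in Div8pos. Cln8 rose at Div5 and again in Div8pos (log2 fold change 0.70 ± 0.14, adjusted p = 0.000175). Bag2, a co-chaperone of Hsp70, was at 2.42 and 3.72 CPM in Div0, 3.40 and 2.59 in Div1, 2.82 and 3.14 in Div3, 6.87 and 6.26 in Div5, 21.8 and 21.6 in Div8neg and 14.1 and 12.9 in Div8pos. Bag2 rose in the same 2 steps (log2 fold change 1.11 ± 0.16, adjusted p = 1.06e-05 in Div8pos), and its per cell levels in Div8neg (2.94 and 3.14) and Div8pos (3.28 and 2.62) overlapped. Kctd17, a substrate adaptor of a ubiquitin ligase, was higher in Div8pos than in Div0 (log2 fold change 2.88 ± 0.30, adjusted p = 1.98e-07). The long noncoding RNA BC064078 (log2 fold change -3.04 ± 0.22, adjusted p = 2.31e-09), Tmem106a (log2 fold change -2.59 ± 0.27, adjusted p = 2.05e-07) and Serpinb6b (log2 fold change -2.48 ± 0.26, adjusted p = 2.22e-07) were lower there, although the last 2 had no call per cell. The unnamed genes 2510009E07Rik and 4930506M07Rik reached 7.04 ± 1.13 CPM and 5.28 ± 0.582 CPM in Div8neg, beside 2.08 ± 0.442 CPM and 1.74 ± 0.143 CPM at Div5. Whether counting used the strand of the reads is not given in the sources used here, so reads of genes that overlap on opposite strands may be shared. By RefSeq, 78 members are protein-coding. Kctd17 and Il2rb lie with 1 protein-coding gene between them, and Sox5 and Sspn with 9.

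Other genes of the germinal center program, from a list from which the 4 members were removed, were compared between Div8neg and Div5. Of 10 tested, 4 were higher and 1 lower in Div8neg (26.8% and 26.6% of all genes), with a median of 0.30 beside 0.00. Rgs13, a regulator of G protein signalling known from germinal center B cells, had 88 counts in Div8neg and 2 in Div5 (ratio 42.2, 95% counting interval 11.3 to 354), at 3.26 CPM in Div8neg and so below the level needed for membership. Neil1, a DNA repair glycosylase, was 2.38-fold higher (35.9 against 14.8 CPM), Basp1 and Pou2af1 were also higher, and Fas was lower. Pou2af1 is counted in the plasma cell list below as well, and Fas in the age-associated list. Bcl6, the master regulator of germinal center B cells, stood at 26.3 CPM in Div8neg, 30.03 at Div5 and 91.01 in Div0 (adjusted p = 0.0585 against Div5). Of 22 marginal zone and B1 genes outside the members, 6 were higher and 11 lower in Div8neg than at Div5, of 14 age-associated B cell genes 3 and 4, and of 30 migration and adhesion genes 11 and 8. Plasma cell genes were higher for 17 of 25 and lower for 1 (Trp53inp1), and B cell identity genes were lower for 23 of 25. In Div8pos against Div8neg (36.7% of all genes higher, 35.3% lower), 23 plasma cell genes were higher and 1 lower, 24 B cell identity genes lower and 1 higher, and 13 of the 14 age-associated genes lower and 1 higher. Scaled per cell, with a median over all genes of 0.49 for Div8neg against Div5 (42.3% of all higher, 3.06% lower), 7 of the 10 germinal center genes were higher, and the marginal zone and B1 split turned to 7 higher and 3 lower. The age-associated split became 7 higher with no gene called lower (4 were by CPM), and that of migration and adhesion genes 15 higher and 4 lower, while 22 plasma cell genes were higher and 6 B cell identity genes lower. For Div8pos against Div8neg on that scale (51.8% and 14.6% of all), 24 plasma cell genes were higher, 22 B cell identity genes lower and 13 age-associated genes lower. These counts leave out the members. The marginal zone and B1, age-associated, and migration and adhesion lists still hold genes that were left out of the rule by name. Some of those would otherwise have entered, so their higher CPM in Div8neg than in the other groups was fixed by the score.

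At the limit of the score the values ran on without a gap. The last members were Idh1 (0.60), Hmgcs1 (0.60) and Cass4 (0.59), and the first genes left outside were Klf11 (0.59), Vash1 (0.58) and Slc16a13 (0.58). Idh1, a cytosolic isocitrate dehydrogenase, had 16.7 CPM in Div8neg and 10.7 at Div5, Hmgcs1, an enzyme of cholesterol synthesis, 129.9 and 85.2, and Cass4, a scaffold of focal adhesions, 8.70 and 5.44. Klf11 had 6.51 CPM in Div8neg and 3.997 in Div0, Vash1 16.0 and 10.4 at Div5, and Slc16a13 11.69 and 7.51 at Div5.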

How the data were processed

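Messenger RNA of 12 sorted B cell samples was sequenced as 50 bp paired-end reads from a stranded kit (11 PCR cycles), with ERCC spike-in RNA added, per the labels' protocols. The authors deposited read counts over the exons of UCSC mm9 known genes, counts of the ERCC RNAs, and estimates in other units, mRNAs per cell and exon length, per the file headers and the readme. Picard, R 3.2.2 and mm9 are named in the submitters' processing notes. Aligner, counter and use of strand: not given in the sources used here. Bisulfite libraries were not analysed here.

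Members were found with Python 3.11.15 and pandas 2.3.3. The members and gene lists were chosen with earlier results of these data known, and the roles after the members were known. For the tests, edgeR 4.0.16 was run in R 4.3.3 (filterByExpr, TMM factors 0.9456 to 1.021, quasi-likelihood fit of all 6 groups, Benjamini-Hochberg adjustment over 12049 genes, 9712 not tested), with calls at an adjusted p under 0.05. All 80 members passed the filter. Fits per cell used library sizes scaled to summed ERCC counts (0.852% to 4.918% of all counts). The script was tested on simulated data. Count ratios carry 95% exact (Clopper-Pearson) intervals. Rows without a gene symbol held 0.0498% to 0.0943% of counts. Named members are the 20 highest scores, those in a gene list, the 3 genes on either side of the limit and, in each comparison, up to 4 called members in each direction with the largest change and a mean of at least 5 CPM in the higher group; others stand as examples of a role, chosen after their values were seen. Alternatives were DESeq2 1.42.0, other size factors, no filter, fits of 2 groups only, the host as a block, spike-in scaling and leaving out each library. Libraries of 1 group come from separate hosts per the labels and each counted as a replicate; their counts were checked for duplicates (chi-square over degrees of freedom 2.56 to 4.62). The 6 groups share hosts 196 and 197, and pairs of groups deviated together by host with correlations of -0.078 to 0.457, over 0.1 for 10 of 15 pairs.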

Additional observations from a re-analysis of the deposited data

How the results depend on the processing

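Each comparison rests on 2 libraries a group, and depth limits statements on members with few counts in a group (Gcsam outside Div8neg; Slc6a12, Acvrl1 and Ngfr in Div8pos). Of 131 alternatives to the main counts and medians, 98 stayed the same. For counts this meant within 1.5 times, and for medians a shift smaller than the SD of the 2 host medians. For named genes 288 of 319 stayed the same, 28 lost their call and 3 reversed. Of 29 named gene and comparison pairs, 19 kept call and sign in every setting tried and 8 of the other 10 changed outside spike-in scaling.

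Spike-in scaling changed counts in 4 of the 5 comparisons by over 1.5 times. For Div1 against Div0 it gave 53 members higher and 0 lower (median 0.76), and Ahnak (0.21), Pdlim1 (0.22) and Cisd3 (0.22) reversed without a call. It gave 5 higher and 0 lower for Div3 against Div1 (median 0.09), a median of 1.20 for Div5 against Div3, 33 higher and 28 lower for Div8pos against Div5 (median 0.35), and 63 higher and 5 lower for Div8pos against Div0 (median 2.27). Without a filter, 7 rose and 7 fell for Div1 against Div0, and 1, Col4a1, fell for Div5 against Div3. The replicate block by host gave 5 higher for Div1 against Div0 and changed no other count of calls by over 1.5 times. Fits of the 2 groups alone gave 5 higher and 0 lower for Div3 against Div1, and DESeq2 gave 0 lower there. At an unadjusted p under 0.05 the lower count in that step was 1 by edgeR. Shares over all genes were counted only for the main and spike-in fits and for the rises at Div1 with the host block.

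Leaving out 1 library gave 0 to 4 higher and 0 to 2 lower for Div1 against Div0, 2 to 9 higher and 0 lower for Div3 against Div1, 33 to 48 higher for Div5 against Div3, 10 to 11 higher and 44 to 51 lower for Div8pos against Div5, and 19 to 23 higher and 25 to 27 lower for Div8pos against Div0. Without both Div8neg libraries, an alternative added after seeing the data, 43 of the 47 members that rose at Div5 and 59 of the 60 calls between Div5 and Div8pos were kept. Chosen by mRNAs per cell, 29 of the 80 genes would again be members, and 50 with a pseudocount of 0.1, the latter also added after seeing the data. The cause of these changes was not tested.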
